A study of Homo sapiens with 12 samples.

Results

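S100 proteins, annexins and the proteins that meet them at the cell membrane and the cytoskeleton were followed at the RNA level in human leukaemia cells deprived of arginine. The set held 10 genes: the short calcium-binding proteins S100A4, S100A6, S100A10, S100A11 and S100A13, the annexins ANXA1 and ANXA2, the galectin LGALS1, the intermediate filament protein VIM and the giant scaffold protein AHNAK. Members were chosen by name, and the set was built around S100A4, which had been seen to stand about 3.07 times higher in a single control library than in its group mates. All 10 were found among the 60664 genes of the count table by their Ensembl identifiers, and 9 of them passed the filter on low counts that left 17349 genes.

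RNA sequencing covered 12 libraries, 3 in each of 4 groups, from the B-cell acute lymphoblastic leukaemia lines TOM-1 and RS4;11, both labelled wild type. TOM-1 is Philadelphia-positive, with a BCR-ABL1 fusion, and RS4;11 has a rearranged KMT2A. Each line was held in RPMI medium with fetal bovine serum and received either ADI-PEG20 at 1000 ng/ml or control for 24 h. ADI-PEG20 is a pegylated bacterial arginine deiminase that turns arginine into citrulline, and the title of the series concerns loss of ASS1, an enzyme that cells need to rebuild arginine, in Philadelphia-positive leukaemia. Each line is a single culture-adapted leukaemia, so a difference between the lines is a difference between these 2 lines and not between leukaemia subtypes. The labels do not say that the 3 libraries of a group came from separate cultures, and p-values then measure only the spread between these libraries.

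S100 proteins are small EF-hand proteins that change shape when they bind calcium and then attach to a partner. S100A4 binds non-muscle myosin and is widely used as a marker of motile cells, S100A6 (calcyclin) binds several cytoskeletal and chaperone proteins, and S100A13 takes part in the export of growth factors that lack a signal peptide. S100A10 differs from its relatives in that it does not respond to calcium. It pairs with annexin A2 at the membrane, where the complex binds plasminogen activators and where AHNAK also docks, while S100A11 is best known as a partner of annexin A1. Annexins bind acidic phospholipids in a calcium-dependent way. Galectin-1, the product of LGALS1, binds beta-galactosides on surface glycoproteins, and vimentin forms the main intermediate filament of blood and mesenchymal cells.

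Per GENCODE release 29 on GRCh38, 5 members lie on chromosome 1, all on the minus strand and protein coding. S100A10 (ENSG00000197747) spans 151982915 to 151994390, S100A11 (ENSG00000163191) 152032506 to 152047907, S100A6 (ENSG00000197956) 153534599 to 153536244, S100A4 (ENSG00000196154) 153543613 to 153550136 and S100A13 (ENSG00000189171) 153618787 to 153631360. VIM (ENSG00000026025) lies on chromosome 10 from 17228259 to 17237593, AHNAK (ENSG00000124942) on chromosome 11 from 62433542 to 62556235, and ANXA2 (ENSG00000182718) on chromosome 15 from 60347134 to 60402883. ANXA1 (ENSG00000135046) lies on chromosome 9 from 73151757 to 73170393 and LGALS1 (ENSG00000100097) on chromosome 22 from 37675608 to 37679806. Longest annotated transcripts ran from 560 bases for LGALS1 to 18787 bases for AHNAK, and those of S100A4, S100A6, S100A11 and S100A13 were all under 1 kb. Of the exonic bases of S100A13, 24.2% also belong to a further gene on its own strand and 10.6% to S100A1 on the opposite strand, and 24.4% of those of VIM lie opposite antisense genes. The use of strand in counting is not given in the sources used here, so reads from such pairs cannot be told apart and values of S100A13 and S100A1 carry that limit. VIM-AS1 itself had at most 47 counts in a library.

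Total counts ran from 18958144 to 35956959 per library, and levels are given as CPM, read counts relative to library totals scaled by TMM. TOM-1 control replicate 3 stood apart: 14963 genes had reads in it against 19857 to 21997 in the other libraries, and ribosomal protein genes took 19.96% of its counts against 9.30% and 9.04% in its group mates. Results that rest on it are therefore given with all libraries and without it. All 12 B-lymphoid markers examined had counts in every group, with a summed level of 8684 to 10269 CPM in TOM-1 control and 3134 to 3368 in control RS4;11. The myeloid S100 genes S100A8, S100A9 and S100A12 were at 0 counts in all 12 libraries, as were ELANE, FCGR3A and FCN1, and the myeloid marker list summed to 14.5 to 28.7 CPM. The myeloid markers with most counts were MPO, CSF1R and CSF3R in TOM-1 and CSF1R and ITGAM in RS4;11.

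The first question was whether the high S100A4 of TOM-1 control replicate 3 was shared by the other short S100 genes. It was shared by those with a measurable level in TOM-1, whereas S100A10 and S100A11, with at most 3 counts in a TOM-1 control library, allow no ratio. S100A4 measured 64.1, 71.6 and 209 CPM in TOM-1 control replicates 1, 2 and 3. S100A13 measured 18.9, 17.9 and 58.3 CPM there, and S100A6 measured 11.4, 11.9 and 25.4. Replicate 3 was the highest of the 3 libraries for each of these genes, while replicates 1 and 2 lay close together. Its ratio to the mean of the other control libraries was 3.07 for S100A4, 3.17 for S100A13 and 2.18 for S100A6. These ratios are a description without a test, because the S100A4 ratio is what the set was chosen on. The family members outside the set behaved alike: S100A1 measured 4.80, 5.23 and 13.3 CPM with a ratio of 2.65, and S100A16 measured 281, 286 and 666 CPM with a ratio of 2.35. Under scaling by total count the ratios of S100A4 and S100A16 came to 2.55 and 1.95.

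Short members outside the S100 family shared the high level of that library, and AHNAK, the longest member, had its lowest TOM-1 level there. LGALS1 measured 35.3, 41.5 and 118 CPM in TOM-1 control, a ratio of 3.07. VIM, with a transcript of 1868 bases, measured 229, 238 and 507 CPM, a ratio of 2.17. ANXA2, with 1676 bases, measured 196, 209 and 345 CPM, a ratio of 1.70. AHNAK, with 18787 bases, measured 17.1, 15.4 and 0.386 CPM, which is 600, 394 and 7 counts, and its ratio was 0.0238. For 6 members replicate 3 was thus the high library, and for AHNAK it was the low one.

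Set against the 10190 genes with at least 5 CPM in TOM-1 control, whose median ratio was 0.935, ratios above 3 were uncommon: 2.46% of genes exceeded 3 and 13.1% exceeded 2. The background changed with transcript length. Among 479 genes under 1 kb the median ratio was 2.32, with 64.7% above 2 and 18.8% above 3. It fell to 1.72 for 1 to 2 kb, 1.04 for 2 to 4 kb, 0.623 for 4 to 8 kb and 0.437 from 8 kb upward. The 82 cytosolic ribosomal protein genes, mostly short, had a median of 2.62. Within its own length class, S100A4 was exceeded by 16.3% of genes, S100A13 by 14.4%, LGALS1 by 16.7%, S100A6 by 57.2%, VIM by 28.7% and ANXA2 by 50.9%. The AHNAK ratio was exceeded by 99.8% of genes from 8 kb upward, so it lay near the bottom even of the long genes. S100A13 was thus the highest placed of the members within its class.

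**Figure D1:**
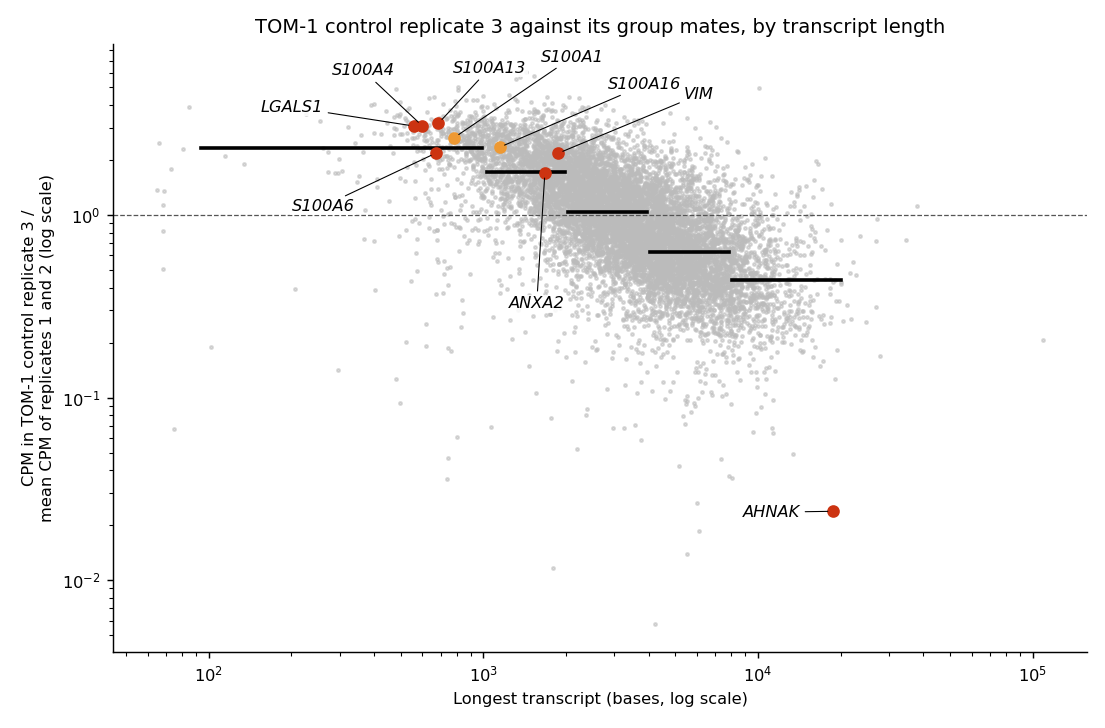
Ratio of the level in TOM-1 control replicate 3 to the mean of replicates 1 and 2 (vertical, log scale, no unit) against the longest annotated transcript in bases (horizontal, log scale), 1 grey point per gene with at least 5 CPM and a ratio above 0. Red points are members, orange points are S100A1 and S100A16, and black bars are medians of the length classes, which fall from 2.32 under 1 kb to 0.437 from 8 kb upward. The 5 marked S100 genes lie between 2.18 and 3.17. S100A6 lies just under the bar of its class and the others above theirs, and AHNAK lies far below its own at 0.0238.

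The ratio of any other library to its group mates ran from 0.458 to 1.13 for S100A4, from 0.443 to 1.24 for LGALS1, from 0.615 to 1.08 for VIM and from 0.707 to 1.08 for ANXA2. It reached 1.42 for S100A6 and 1.58 for S100A13, both in RS4;11. Members with few counts spread more, such as AHNAK with 0, 0 and 10 counts in control RS4;11 and S100A11 with 22, 31 and 52 in treated TOM-1. The low ends of the first 4 genes belong to the other TOM-1 control libraries, whose group mates include replicate 3.

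Levels were compared between genes as CPM per kb of longest transcript. In control RS4;11, S100A4 was the most abundant member at 286 CPM per kb, followed by VIM at 221, ANXA2 at 111, S100A10 at 80.8, S100A11 at 66.7 and LGALS1 at 35.2. S100A13 at 8.01 and S100A6 at 6.95 came last among the clearly expressed members, and their libraries overlapped. In TOM-1 control with all 3 libraries, S100A4 came first at 191 CPM per kb, ahead of VIM at 174 and ANXA2 at 149. Without replicate 3, VIM at 125, ANXA2 at 121 and S100A4 at 113 CPM per kb formed the top, ahead of LGALS1 at 68.6, S100A13 at 26.8 and S100A6 at 17.3. There the libraries of ANXA2 overlapped those of VIM and those of S100A4, while VIM lay above S100A4 without overlap. After ADI-PEG20 the order in TOM-1 was LGALS1 at 75.4, ANXA2 at 51.3, VIM at 43.0, S100A13 at 21.2, S100A6 at 13.6 and S100A4 at 12.1 CPM per kb. The 3 treated libraries of S100A4 lay below all 3 of S100A6, a gene it exceeded in every control library.

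**Figure D2:**
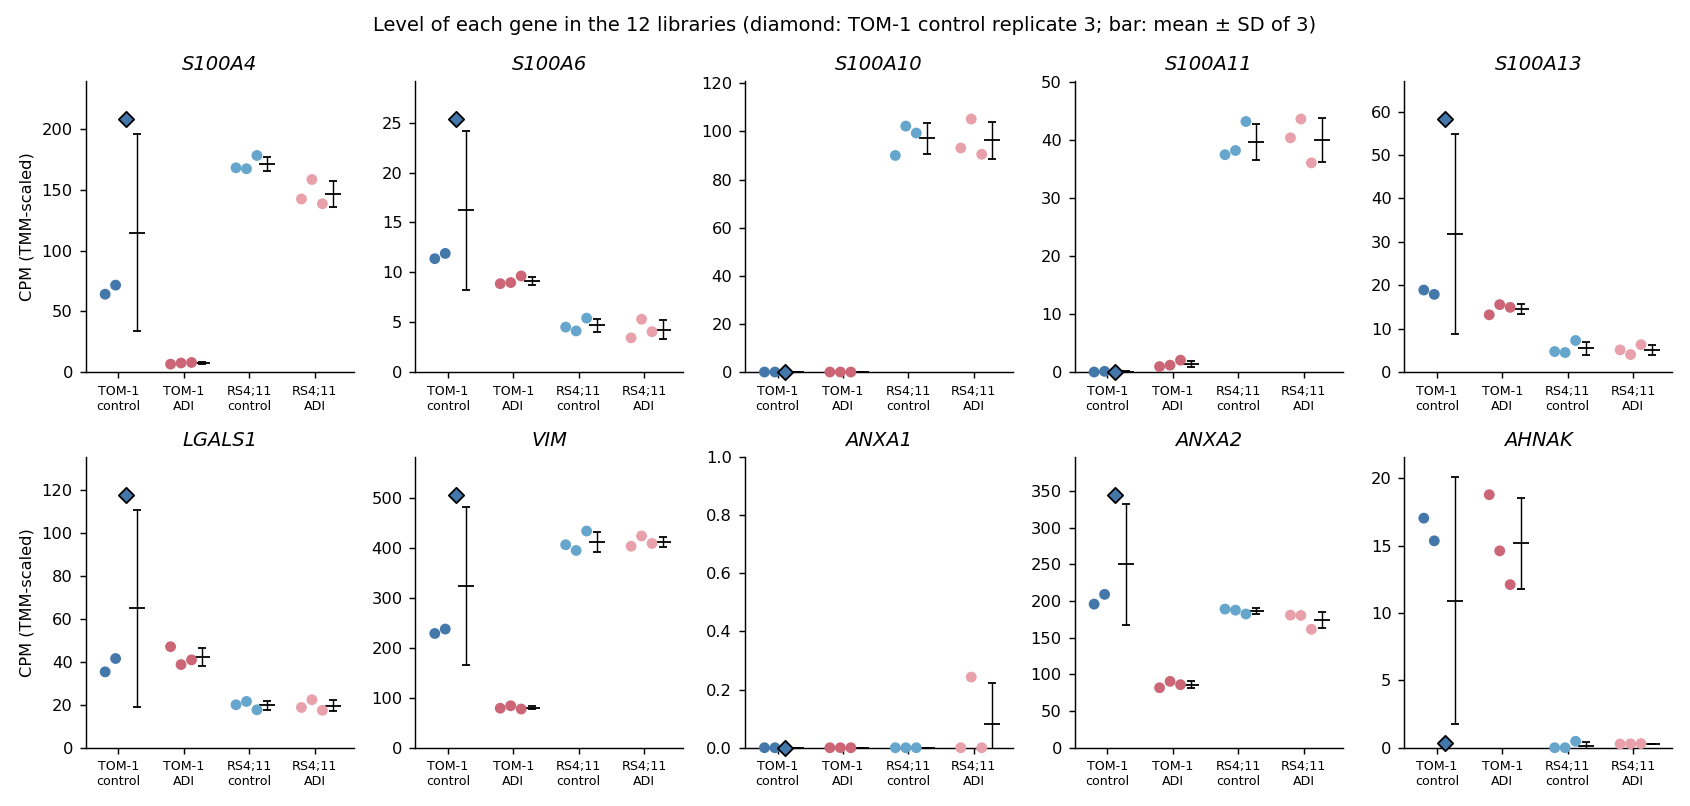
Level of each of the 10 members (vertical, CPM scaled by TMM, each panel with its own linear axis from 0) in the 12 libraries, with points for libraries, a diamond for TOM-1 control replicate 3 and black bars for the mean ± SD of 3 libraries. S100A4, VIM and ANXA2 are lower in all treated TOM-1 libraries than in every TOM-1 control library, S100A10 is at 0 throughout TOM-1, and control and treated RS4;11 lie side by side in every panel with a clear level.

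ADI-PEG20 against control in TOM-1 asked how the members responded to arginine removal in the Philadelphia-positive line. S100A4, VIM and ANXA2 were lower in all 3 treated libraries than in every control library, S100A11 appeared at a low level, and LGALS1 and AHNAK did not pass the test. Among the 8 tested members other than S100A4, which include S100A10 at 0 counts in this line, 4 passed an adjusted p of 0.05 in edgeR's quasi-likelihood test with Benjamini-Hochberg adjustment. S100A11 rose, and S100A13, VIM and ANXA2 fell. Over all tested genes 31.9% passed in this comparison, so a change as such was common. Without control replicate 3, 3 of the 8 passed, S100A13 being lost, against 41.6% of all tested genes. In bulk RNA, fewer cells of a kind and less RNA per cell cannot be told apart.

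S100A4 measured 6.51, 7.44 and 7.87 CPM in treated TOM-1 against 64.1 to 209 in control, with no overlap. The group means were 7.27 ± 0.696 and 115 ± 81.3 CPM (SD, n = 3 each), and the control mean without replicate 3 was 67.9 ± 5.28 (SD, n = 2). On the log2 scale the level was lower by 3.98, written as a log2 change of -3.98 ± 0.39 (SE), and the value without that library was -3.22 ± 0.09. No p is given because S100A4 was chosen with its fall in treated TOM-1 known. The lower of these values is a 9.32-fold difference and the higher a 15.7-fold difference, so control replicate 3 moved the fold by over 1.5 times.

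Among the other S100 members, S100A13 measured 13.2, 15.5 and 14.9 CPM after ADI-PEG20 against 17.9 to 58.3 in control. Its groups did not overlap, but its call was lost without control replicate 3 and in 13 of 21 alternatives in all: the log2 fold change was -1.12 ± 0.40 (SE, adjusted p = 0.0498) and -0.34 ± 0.20 (adjusted p = 0.193) without it. S100A6 measured 8.86, 8.97 and 9.64 CPM against 11.4 to 25.4, a log2 change of -0.82 ± 0.30 (adjusted p = 0.0535), and of -0.35 ± 0.21 (adjusted p = 0.212) without that library. S100A6 treated libraries lay below every control library without passing the threshold. Against the 9.32-fold difference of S100A4 without replicate 3, those of S100A13 and S100A6 came to 1.27-fold each.

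S100A11 was close to absent from TOM-1 control, with 0, 3 and 0 counts in replicates 1, 2 and 3. After ADI-PEG20 the libraries held 22, 31 and 52 counts, or 0.942, 1.18 and 2.05 CPM, all above the control libraries. The ratio of the pooled rates was 36.9, with a 95% interval of 12.3 to 182 that covers counting error only (105 against 3 counts). The test gave an adjusted p of 1.22e-04, and of 1.03e-06 without control replicate 3. The treated level was still 28.6-fold below that of treated RS4;11. S100A10, also on chromosome 1, had 0 counts in all 6 TOM-1 libraries, so it gave no fold change in this line.

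VIM measured 79.2, 84.1 and 77.6 CPM in treated TOM-1 against 229, 238 and 507 in control. Its treated libraries lay close together and far under every control library. The log2 change was -2.02 ± 0.25 (SE, adjusted p = 1.48e-04), and -1.54 ± 0.06 (adjusted p = 2.24e-14) without replicate 3. ANXA2 measured 81.8, 90.4 and 85.9 CPM against 196, 209 and 345. Its groups did not overlap either, and the log2 change was -1.54 ± 0.19 (SE, adjusted p = 1.22e-04), or -1.24 ± 0.07 (adjusted p = 4.30e-12) without replicate 3. Both calls held under all 21 alternatives run, with adjusted p at most 0.0134 for VIM and 0.0124 for ANXA2.

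LGALS1 measured 47.0, 38.7 and 40.9 CPM in treated TOM-1, within the control range of 35.3 to 118. Its log2 change was -0.62 ± 0.36 (SE, adjusted p = 0.216), and the direction turned without replicate 3, to 0.13 ± 0.13 (adjusted p = 0.454). AHNAK measured 18.8, 14.6 and 12.1 CPM against 17.1, 15.4 and 0.386. Its log2 change of 0.46 ± 0.85 (SE, adjusted p = 0.743) also turned, to -0.10 ± 0.32 (adjusted p = 0.868). ANXA1, the usual partner of S100A11, had 0 counts in all TOM-1 libraries and did not enter the test.

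The summed level of stromal markers was lower in treated TOM-1, as S100A4, VIM and ANXA2 were. It went from 96.7 to 170 CPM in control to 45.8 to 50.1 CPM after ADI-PEG20. Within control it ran the other way, with 170, 169 and 96.7 CPM in replicates 1, 2 and 3. Replicate 3 thus had the lowest stromal sum but the highest S100A4, VIM and ANXA2. Levels in that library also changed with transcript length, with a median ratio of 2.32 under 1 kb and 0.437 from 8 kb upward. The part of length in this contrast was not tested. The sum was carried by COL6A3, SPARC and PDGFRB, while 6 of the 11 markers (COL1A2, COL3A1, DCN, LUM, PDGFRA and THY1) were at 0 in all 6 libraries. The T and NK list moved from 356 to 372 CPM to 251 to 265 CPM with CD3D, CD3E and CD3G at 0 and IL7R, which B-cell precursors also express, and TRAC in the lead. The B-lymphoid sum stayed between 8684 and 10269 CPM in both groups. The part of these markers in the results was not tested.

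Promoter sequence was available for 9 of the 10 members in a RefSeq table on GRCh38.p14. The 200 bases before the annotated start are shown for S100A4, VIM and ANXA2, which were lower together in treated TOM-1, and for S100A10, which had no counts in TOM-1. Capitals mark matches on either strand to the TATA box (TATAAA), the GC box (GGGCGG), the AP-1 site (TGANTCA), the E-box (CANNTG) and the amino acid response element (TTGCATCA), written 5′ to 3′ in the direction of transcription.
S100A4, chr1:153545807-153546006, minus strand: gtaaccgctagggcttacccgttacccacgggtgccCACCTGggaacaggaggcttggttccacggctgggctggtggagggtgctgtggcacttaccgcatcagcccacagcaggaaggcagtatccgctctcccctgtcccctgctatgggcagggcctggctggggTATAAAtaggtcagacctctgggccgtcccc
VIM, chr10:17228041-17228240, plus strand: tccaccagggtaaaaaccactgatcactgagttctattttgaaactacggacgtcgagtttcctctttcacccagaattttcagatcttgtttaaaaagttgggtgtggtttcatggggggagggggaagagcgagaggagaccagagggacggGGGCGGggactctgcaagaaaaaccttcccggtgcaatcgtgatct
ANXA2, chr15:60397987-60398186, minus strand: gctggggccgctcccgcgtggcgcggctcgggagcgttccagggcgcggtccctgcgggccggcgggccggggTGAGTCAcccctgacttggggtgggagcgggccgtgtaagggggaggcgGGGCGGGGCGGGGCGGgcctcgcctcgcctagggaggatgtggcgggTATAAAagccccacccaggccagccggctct
S100A10, chr1:151993860-151994059, minus strand: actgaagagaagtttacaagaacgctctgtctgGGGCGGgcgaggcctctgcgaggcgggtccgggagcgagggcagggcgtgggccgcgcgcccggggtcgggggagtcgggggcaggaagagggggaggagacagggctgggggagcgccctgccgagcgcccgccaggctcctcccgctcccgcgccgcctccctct
A TATA box stood 31 bases before the start in S100A4 and in ANXA2, and none was found in the VIM and S100A10 windows. Of 35116 promoter windows of this length, 8.59% held a TATA box. The ANXA2 window held 3 GC boxes in a row at 78, 73 and 68 bases before the start, which overlap by a base each, and the VIM and S100A10 windows held a single one each. GC boxes occurred in 40.1% of all windows. ANXA2 alone among the members had an AP-1 match, 127 bases before the start, a motif in 5.38% of windows. S100A4 had an E-box at 164 bases, found in 54.0% of windows. The amino acid response element, in 0.638% of windows, was in none of the member windows. A match is a description of letters and not a site in use, and the lack of one says nothing about a factor.

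ADI-PEG20 against control in RS4;11 asked the same of the KMT2A-rearranged line. No member passed the test, and 0% of all tested genes did in edgeR, where 325 genes but no member had an unadjusted p under 0.05. DESeq2 called 0 genes as well, with 500 genes but no member under an unadjusted 0.05. Without TOM-1 control replicate 3 in the shared fit, 0.317% of genes passed and still no member. Here S100A4 was free to be tested: it measured 168, 168 and 178 CPM in control and 143, 159 and 139 after ADI-PEG20. Its treated libraries all lay below the control libraries, but the log2 change of -0.23 ± 0.34 (SE) had an adjusted p of 1, and -0.23 ± 0.07 without that library had an adjusted p of 0.160 (unadjusted p = 0.00449). It was the single member with an unadjusted p under 0.05 there.

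The remaining members in RS4;11 had close levels in control and treated cells. VIM measured 407, 395 and 434 CPM in control and 404, 425 and 410 after treatment, a log2 change of 0.0015 ± 0.24 (SE). ANXA2 measured 189, 188 and 182 CPM in control and 181, 180 and 161 after treatment, -0.10 ± 0.18. S100A10 measured 90.00, 102 and 99.3 CPM in control and 93.1, 105 and 90.5 after treatment, -0.014 ± 0.13. S100A11 measured 37.5, 38.2 and 43.2 CPM in control and 40.4, 43.6 and 36.1 after treatment, 0.015 ± 0.27. Treated ANXA2 libraries lay just under the control libraries, and the groups of S100A10 overlapped, in the line that has both partners. S100A6, S100A13 and LGALS1 had log2 fold changes between -0.14 and -0.018, all with an adjusted p of 1. AHNAK had 0, 0 and 10 counts in control and 7, 6 and 6 after treatment, and ANXA1 had 5 counts in a single treated library, 0.243 CPM, and none elsewhere.

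**Figure D3:**
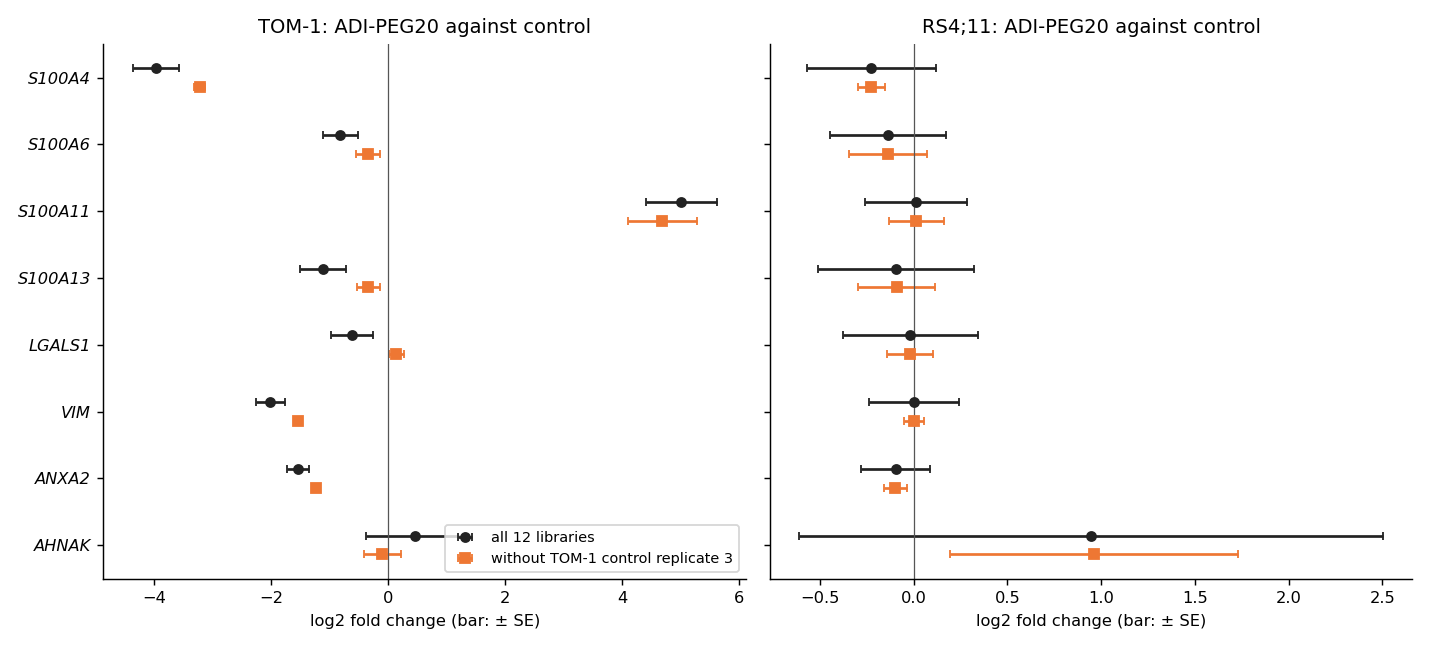
Log2 fold change of ADI-PEG20 against control (horizontal) for the 8 members with a value in both lines, with TOM-1 in the left panel and RS4;11 in the right, each panel with its own scale. Black circles are the fit of all 12 libraries, orange squares the fit without TOM-1 control replicate 3, and bars ± SE. In TOM-1, S100A4, VIM and ANXA2 stay to the left of 0 and S100A11 to the right in both fits, while LGALS1 and AHNAK change side, and in RS4;11 all members but AHNAK stay within 0.23 of 0.

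The difference between these effects was tested as an interaction. It passed for 3 of the 8 tested members other than S100A4, where 11.9% of all tested genes passed, and for the same number without TOM-1 control replicate 3, where 30.4% did. VIM fell by 2.02 more on the log2 scale in TOM-1 than in RS4;11 (SE 0.35, adjusted p = 0.00373), or by 1.54 more without replicate 3 (adjusted p = 8.00e-12). ANXA2 fell by 1.44 more (SE 0.26, adjusted p = 0.00476), or by 1.14 more without it (adjusted p = 5.38e-09). For S100A11 the difference of 5.00 (SE 0.69, adjusted p = 0.00110) rests on the 3 counts of TOM-1 control and depends on the prior count of the fit. S100A13 at -1.03 (adjusted p = 0.280), S100A6 at -0.68 (adjusted p = 0.341) and LGALS1 at -0.60 (adjusted p = 0.499) did not pass. The S100A4 difference was -3.75, or -2.99 without replicate 3, as a description without a p.

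TOM-1 against RS4;11 in control culture compared the lines at rest. S100A6, S100A13, LGALS1 and AHNAK were higher in TOM-1, and S100A10 and S100A11 were lower. These were 6 of the 8 tested members other than S100A4, where 34.7% of all tested genes passed. Without TOM-1 control replicate 3, VIM joined the lower members, making 7 of 8, and 52.8% of genes passed. S100A10, with 0 counts in TOM-1, and AHNAK, with at most 10 in an RS4;11 library, passed the low-count filter through a single line. Their calls between the lines were close to fixed by that, so these counts of members are descriptions. S100A11 had 3 counts in TOM-1 control.

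S100A10 was seen in a single line. It measured 90.00 to 102 CPM in control RS4;11 and 0 in TOM-1, at least 793-fold lower against a floor of 3 counts per library. No p is given, because S100A10 entered the test through RS4;11 alone. S100A11 measured 37.5 to 43.2 CPM in control RS4;11, and with 3 counts in TOM-1 control the ratio of rates was 1039, with a 95% counting interval of 355 to 5040.1 (adjusted p = 4.14e-08). The processed pseudogenes S100A11P1 and ANXA2P2 held few reads, at most 6 and 35 counts in a library. S100A6 was 3.46-fold higher in TOM-1 (log2 1.79 ± 0.31, adjusted p = 6.65e-04) and S100A13 5.76-fold higher (log2 2.53 ± 0.42, adjusted p = 5.35e-04). Without replicate 3 these became 2.48-fold and 3.36-fold, and both kept passing the test. S100A4 was lower in TOM-1 by 0.58 on the log2 scale, or by 1.34 without replicate 3, the latter a 2.53-fold difference.

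LGALS1 measured 35.3 to 118 CPM in TOM-1 control and 17.6 to 21.5 in control RS4;11. It was 3.28-fold higher in TOM-1 (log2 1.71 ± 0.37, adjusted p = 0.00310), and 1.94-fold higher without replicate 3 (adjusted p = 1.88e-06). AHNAK, the scaffold that docks on the S100A10 and annexin A2 complex, measured 17.1, 15.4 and 0.386 CPM in TOM-1 control. It had at most 0.478 CPM in control RS4;11, so TOM-1 control replicate 3 overlapped the other line. Without that library the AHNAK groups did not overlap. No p is given for AHNAK here, because it entered the test through TOM-1 alone. VIM had a log2 difference of -0.34 ± 0.24 (adjusted p = 0.309), and of -0.82 ± 0.06 (adjusted p = 2.51e-10) without replicate 3. ANXA2 had a log2 difference of 0.42 ± 0.18 (adjusted p = 0.0940), and of 0.12 ± 0.07 (adjusted p = 0.164) without it. ANXA2 passed as higher in TOM-1 under 3 alternatives: with length offsets (0.43, adjusted p = 0.0295), without TOM-1 control replicate 1 (0.53 on the log2 scale, adjusted p = 0.0395) and, leaving out replicate 3, with offsets (0.21, adjusted p = 0.0259).

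Under ADI-PEG20 the lines were compared with no library of TOM-1 control in the contrast. All 8 tested members other than S100A4 passed, where 47.2% of all tested genes passed, and 62.9% in the fit without TOM-1 control replicate 3. S100A10 and AHNAK entered the test through a single line, as above. S100A4 was 20.1-fold lower in treated TOM-1 (log2 -4.33 ± 0.40), with 6.51 to 7.87 CPM against 139 to 159. Its fall in treated TOM-1 was known when it was chosen, so this is a description without a p. VIM was 5.14-fold lower (adjusted p = 1.17e-05) and ANXA2 2.02-fold lower (adjusted p = 6.84e-04). S100A10 was at least 800.0-fold lower, and S100A11 28.6-fold lower (adjusted p = 3.12e-07). S100A6 was 2.15-fold higher in treated TOM-1 (adjusted p = 0.0104), S100A13 2.83-fold higher (adjusted p = 0.0103) and LGALS1 2.17-fold higher (adjusted p = 0.0237). AHNAK was 51.1-fold higher, and like S100A10 it is described without a p. The LGALS1 call was lost in 7 of 21 alternatives, where the adjusted p reached 0.0985. The S100A6 call was lost without RS4;11 ADI-PEG20 replicate 1 (adjusted p = 0.0520) and the S100A13 call without RS4;11 ADI-PEG20 replicate 2 (adjusted p = 0.0557). In treated TOM-1 there was therefore less S100A4, VIM and ANXA2 RNA than RS4;11 and more S100A6, S100A13 and LGALS1 RNA.

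The S100 family as a whole was narrow in these cells. Of 21 family genes, 8 had 0 counts in all 12 libraries and 7 reached a group mean of 1 CPM: S100A1, S100A4, S100A6, S100A10, S100A11, S100A13 and S100A16. S100A16 was the most abundant in TOM-1, with 281 to 666 CPM in control, and measured 1.44 to 2.10 CPM in control RS4;11, a log2 difference of 7.86 ± 0.40 (adjusted p = 4.04e-08), or 7.33 without replicate 3. After ADI-PEG20, S100A16 measured 136 to 142 CPM in TOM-1, a log2 change of -1.56 ± 0.29 (adjusted p = 0.00203), or -1.03 without replicate 3. S100A1, a calcium sensor best known from heart muscle, went from 4.80 to 13.3 CPM to 1.53 to 2.31 CPM, a log2 change of -2.09 ± 0.41 (adjusted p = 0.00238), or -1.47 without replicate 3. Leaving out S100A4, 3 tested family genes fell in TOM-1 (S100A1, S100A13 and S100A16), S100A11 rose, and S100A6 and S100A10 did not pass. Over all tested genes 31.9% passed in this comparison. Without control replicate 3, where 41.6% of all tested genes passed, S100A13 was no longer called (log2 -0.34). S100A1 and S100A16 were still called as lower in that fit, and S100A11 as higher. On chromosome 1, S100A11 thus rose, from 3 control counts, while S100A1, S100A4, S100A6, S100A13 and S100A16 were all lower in treated TOM-1. S100A6 was lower (log2 -0.82) without passing the threshold.

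Of 13 annexin genes 7 were tested. In TOM-1, where 31.9% of all tested genes passed, 4 fell and 0 rose. Their median log2 fold change was -0.47 against 0.048 over all tested genes. Without control replicate 3, where 41.6% of all tested genes passed, 3 fell: ANXA9, named after its values were seen, was no longer called. ANXA6 fell by 1.70 on the log2 scale (SE 0.16, adjusted p = 1.94e-05), or by 1.49 without that library, from 145 to 226 CPM to 50.9 to 57.0 CPM. ANXA4 fell by 0.43 (adjusted p = 0.0150), or by 0.50 without it. ANXA5, the annexin used to stain dying cells, had 0 counts in all 6 TOM-1 libraries and 115 to 146 CPM in RS4;11, the same split as S100A10. Between the control lines ANXA4 was higher in TOM-1 (log2 2.10, or 2.16 without replicate 3), as was ANXA11 (0.52, or 0.19), while ANXA7 was lower (-0.56, or -0.44). Under ADI-PEG20, ANXA4 was higher in TOM-1 (log2 1.65) and ANXA6 lower (-1.60).

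Of 6 tested galectin genes, LGALS9 fell in TOM-1 by 1.97 (SE 0.30, adjusted p = 5.55e-04), or by 1.40 without control replicate 3. LGALS8 rose by 1.34 (SE 0.31, adjusted p = 0.00673), or by 0.98 without that library, in which it was low: it measured 32.9, 33.8 and 11.1 CPM in control. LGALS1 was among the 4 that did not pass. Over all tested genes 31.9% passed for TOM-1 treatment, and 41.6% without control replicate 3. LGALS9 was also higher in TOM-1 between the control lines (log2 1.34, or 0.76), and LGALS8 was higher in TOM-1 between the treated lines (1.55). Among 7 tested intermediate filament and lamin genes, VIM and LMNB2 fell and 0 rose, LMNB2 by 0.79 (SE 0.10, adjusted p = 1.23e-04) in both fits. Without control replicate 3, 3 fell, LMNB1 joining them, and KRT10 rose. KRT10, a keratin named after its values were seen, measured 18.5, 18.3 and 47.7 CPM in control and 38.4, 39.3 and 33.9 after ADI-PEG20, a rise of 1.02 (SE 0.12, adjusted p = 3.55e-07) in that fit. LMNB1 was lower in TOM-1 between the control lines (log2 -0.64, or -0.50) and also between the treated lines, where LMNB2 was lower too (-0.52).

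Partners of S100 proteins and annexins were split. Of 21 tested, 3 rose and 8 fell in TOM-1, with a median log2 fold change of -0.039, where 31.9% of all tested genes passed. The list includes the members ANXA2, AHNAK and S100A10. ANXA2 is thus among the 8 that fell, and S100A10 was tested with 0 counts in this line. Without control replicate 3, where 41.6% of all tested genes passed, 5 of 22 rose and 8 fell. MYH9 and SUGT1 were the added rises, both named after their values were seen. PLAU, the urokinase whose product activates plasminogen, rose by 2.34 (SE 0.44, adjusted p = 0.00202), or by 2.15 without that library, from 3.20 to 6.08 CPM to 19.8 to 25.3 CPM. SYT1, a synaptotagmin, rose by 1.86 (adjusted p = 4.31e-04), or by 1.53, and PPFIBP1, a liprin that binds S100A4, by 1.04 (adjusted p = 0.0402), or by 0.64. PLAUR, the urokinase receptor, fell by 1.07 (SE 0.17, adjusted p = 8.20e-04), or by 1.06, from 10.5 to 11.5 CPM to 4.58 to 5.74 CPM. BSG, a surface glycoprotein that binds S100 proteins outside the cell, fell by 1.44 (SE 0.25, adjusted p = 0.00129), or by 0.95, and CAPNS1, the small calpain subunit, by 1.03 (adjusted p = 0.00462), or by 0.61. AGER, the receptor for several S100 proteins, measured 16.1, 15.95 and 26.6 CPM in TOM-1 control and 15.3, 12.4 and 18.1 after ADI-PEG20, which overlap.

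Between the control lines, 3 of 21 partners were higher in TOM-1 and 7 lower, or 6 and 10 of 22 without TOM-1 control replicate 3. Over all tested genes 34.7% passed there, and 52.8% without that library. AGER was higher (log2 0.80, or 0.52 without that library), and PLAUR (-0.86, or -0.87), HLTF (-2.06, or -1.54) and the calpain CAPN2 were lower. CAPN2 measured 7.08 to 12.7 CPM in control RS4;11 and at most 0.682 in TOM-1 control. Under ADI-PEG20, where 47.2% of all tested genes passed, 5 of 21 were higher in TOM-1 and 12 lower. PLAU, SYT1 and PPFIBP1 led the first, the last 2 with log2 differences of 2.19 and 1.66, and PLAU with 19.8 to 25.3 CPM against at most 0.486. TLR4, CAPN2 and PLAUR led the second, and TLR4, a receptor for S100A8 and S100A9, measured 4.20 to 5.62 CPM in treated RS4;11 and at most 0.0856 in treated TOM-1.

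Of 35 tested actin and myosin genes, 17 fell and 1 rose in TOM-1, with a median log2 fold change of -0.60. Over all tested genes 31.9% passed. Without control replicate 3, where 41.6% of all tested genes passed, 22 fell and 5 rose. TMSB10, which binds actin monomers, fell by 2.08 (SE 0.40, adjusted p = 0.00209), or by 1.19 without that library. TAGLN2, an actin-bundling protein, fell by 1.92 (SE 0.20, adjusted p = 4.16e-05), or by 1.59, and PFN1, profilin, by 1.78 (SE 0.26, adjusted p = 4.28e-04), or by 1.26. TPM4, a tropomyosin, rose by 0.49 (SE 0.11, adjusted p = 0.00477), or by 0.39. The difference between the lines' responses also passed for TMSB10, TAGLN2, PFN1 and TPM4, and in the other lists for S100A1, ANXA6, LGALS9, LMNB2, SYT1, BSG, PLAUR and CAPN1, in both fits.

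Between the control lines, 11 of 35 actin and myosin genes were higher in TOM-1 and 4 lower, or 16 and 10 without TOM-1 control replicate 3. Over all tested genes 34.7% passed there, and 52.8% without that library. CNN3, a calponin, measured 11.3 to 21.0 CPM in TOM-1 control and 0 in all RS4;11 libraries, CNN2 was higher in TOM-1 by 3.46 (or 3.34 without that library) on the log2 scale and TMSB4X by 2.60 (or 2.08). GSN (log2 -0.96, or -1.43), CAPG (-0.89, or -1.36) and ACTN4 (-0.41, or -0.32) were lower. Under ADI-PEG20, where 47.2% of all tested genes passed, 10 of 35 were higher in TOM-1 and 14 lower. Among them were CNN2 (log2 3.00) and CNN3 on the first side, and TAGLN2 (-2.30) and GSN (-2.06) with TPM1 on the second. TPM1 had 0 counts in all TOM-1 libraries and 4.06 to 7.67 CPM in RS4;11. No gene of these 6 lists passed for ADI-PEG20 in RS4;11 in edgeR, where 0 of 80 had an unadjusted p under 0.05, nor without TOM-1 control replicate 3, where 8 of 81 had, nor in DESeq2, where 1 of 100 had. The lists were drawn up with earlier results of these data known, and their counts are descriptions beside the shares of all genes that passed, 31.9% for TOM-1 treatment.

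The genes whose levels followed S100A4 most closely were sought by Pearson correlation of log2 CPM among 10542 genes over the 12 libraries. They were CCT3 (r = 0.998), a subunit of the CCT chaperonin, TAGLN2 (r = 0.996), the glycolytic enzyme PKM (r = 0.996) and the splicing factor SRSF7 (r = 0.996). VIM had rank 5 (r = 0.996). Without TOM-1 control replicate 3 they were DNAJA1 (r = 0.999), RBMX (r = 0.999), CCT3 (r = 0.998) and LY6E (r = 0.998), and VIM had rank 25 of 10584. CCT3 measured 373 to 575 CPM in TOM-1 control, 121 to 130 after ADI-PEG20, 576 to 577 in control RS4;11 and 508 to 529 after treatment. The libraries fall into groups, so these correlations mainly record shared differences between groups and are given without a p. Over all 12 libraries ANXA2 had r = 0.890 with S100A4 and rank 1006, and without TOM-1 control replicate 3 r = 0.930 and rank 1398. S100A6 had r = -0.293, S100A13 r = -0.314 and LGALS1 r = -0.340 over all libraries, and these became -0.667, -0.712 and -0.844 without replicate 3. Within the set, VIM was the member whose levels followed S100A4 most closely in both settings. S100A6, S100A13 and LGALS1 shared with S100A4 a high level in TOM-1 control replicate 3.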

How the data were processed

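The authors deposited a single table of raw read counts per Ensembl gene, not normalized. Total RNA was captured by poly(A) tail, per the labels, and the submitters' processing notes list STAR, SAMtools, featureCounts and hg38. Versions, strand and overlap settings are not given in the sources used here. Columns were matched to samples by the column names in the descriptions, and groups came from the titles. The tests used edgeR 4.0.16 in R 4.3.3: filterByExpr kept 17349 genes, libraries were scaled by TMM, and a group-means model over 12 libraries was tested with glmQLFTest, with Benjamini-Hochberg adjustment over all tested genes and a threshold of 0.05. The SE is the size of a log2 fold change divided by the square root of F. The fit was repeated without TOM-1 control replicate 3, over 18321 genes. Alternatives were DESeq2 1.42.0, other scalings and filters, a replicate block, the 6 libraries of a contrast, length offsets (lowess, span 0.3) and each library left out. Length offsets without that library were added after seeing the data. Positions, overlaps and lengths (longest basic transcript) came from GENCODE release 29 on GRCh38, which is the hg38 build, and held 58396 of 60664 identifiers. A table of Ensembl names gave 60463 symbols. Intervals are exact at 95% and, like the floor of 3 counts, cover counting error only.

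The members and the gene lists were chosen with earlier results of these data known, S100A4 for its level in TOM-1 control replicate 3 and its fall in TOM-1. It therefore gets no p in any contrast that holds TOM-1 libraries. Members are named in every comparison. Other list genes are named when among the 3 largest changes in a direction that pass the threshold, reach 5 CPM and show no overlap between groups, along with S100 genes at 1 CPM or more and the 4 genes most like S100A4. A gene that meets this rule is not reported here. AGER in treated TOM-1, ANXA9, KRT10, MYH9, SUGT1, IL7R and the marker and pseudogene names were added after their values had been seen. Replicates of a group differed by more than counting noise (chi-square divided by its degrees of freedom, 4.98 or more). On simulated counts for ADI-PEG20 in TOM-1 over 17349 genes, edgeR recovered 41 of 100 genes changed 2-fold and 88 of 100 changed 4-fold, with 5 false calls. The changed genes were drawn only from genes above a floor on mean counts. Genes were simulated independently, without the length trend of TOM-1 control replicate 3, so these rates need not hold for the real contrast. Figures were drawn with matplotlib 3.10.9.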

Additional observations from a re-analysis of the deposited data

Results flagged for a closer look

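For 3 members the ADI-PEG20 effect differed between the lines in edgeR's interaction contrast, over 3 libraries a group. For S100A11 the difference, TOM-1 minus RS4;11, was 5.00 on the log2 scale (adjusted p = 0.00110), with treated libraries above control in 3 of 3 TOM-1 libraries. For VIM it was -2.02 (adjusted p = 0.00373) and for ANXA2 -1.44 (adjusted p = 0.00476), each with all 3 treated TOM-1 libraries below all 3 controls. All 3 differences also passed without TOM-1 control replicate 3. They were 3 of the 8 tested members other than S100A4. Over all tested genes 11.9% passed this contrast, and 30.4% did without that library. The S100A11 value rests on 3 counts in TOM-1 control.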

How the results depend on the processing

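The number of members called stayed within 1.5 times of its value in every comparison and alternative run, and the calls of VIM, ANXA2 and S100A11 in TOM-1 and in the difference between lines held in all of them. The S100A13 call in TOM-1 was lost in 13 of 21 alternatives, while S100A6 passed in 7, with adjusted p down to 0.0201, and LGALS1 in 1, without TOM-1 control replicate 1 (adjusted p = 0.0419). With the replicate block, 4 members were called in TOM-1, 0 in RS4;11, 3 in the difference, 6 between control lines and 9 between treated lines, as without it. The count of 9 includes S100A4, which was chosen with its fall in treated TOM-1 known. Without the block, 31.9%, 0%, 11.9%, 34.7% and 47.2% of all tested genes passed in these comparisons. That share was not tallied with the block. In TOM-1 the count of members ran from 3 to 6 over the alternatives, and the share of all genes was 41.6% without control replicate 3. Same-numbered libraries had correlations of deviations from -0.062 to 0.145, and differently numbered ones from -0.095 to 0.070. The highest value belonged to replicate 3 of control and treated RS4;11. The labels do not say that the numbers pair libraries, so pairing was left to the replicate block.

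Values on the log2 scale that changed sign were all uncalled, and the cause was not tested. In TOM-1, LGALS1 was 0.26 and AHNAK -0.38 with length offsets and without control replicate 3, and leaving out single libraries gave -0.94 to 0.13 and -0.10 to 0.90. For the difference, LGALS1 was 0.37 with those offsets, and single omissions gave -0.93 to 0.15 for LGALS1 and -5.46 to 0.084 for AHNAK. In RS4;11, S100A10 was 6.44e-05 with upper-quartile scaling and 0.0016 with length offsets, and S100A11 was -0.044 with offsets and -0.062 with offsets and without that library. Single omissions there gave -0.32 to 0.0065 for S100A6, -0.083 to 0.031 for S100A10, -0.052 to 0.086 for S100A11, -0.26 to 0.16 for S100A13, -0.13 to 0.059 for LGALS1 and -0.027 to 0.042 for VIM. Length offsets alone, with all libraries, left S100A13 in TOM-1 at -1.19 (adjusted p = 0.0525). Depth limited S100A11 and S100A10 in TOM-1 and AHNAK and ANXA1 in RS4;11, where a library held at most 52 counts.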
